A study of Mus musculus with 6 samples.

Results

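The aryl hydrocarbon receptor genes described here are 10 named genes among the 39017 genes of the count tables. They are the receptor Ahr, its dimer partner Arnt and its repressor Ahrr, the stress factor Nfe2l2, and 6 genes that the receptor is known to control, namely Cyp1a1, Cyp1a2, Cyp1b1, Tiparp, Nqo1 and Aldh3a1. They were picked by gene symbol, with their counts in these libraries already known, so their own values below are a description and no p-value is given for them. How many of them passed the call rule is stated once, beside the share of all genes that did, and nothing is read from it. Tests are reported for other genes of the pathway. PolyA RNA-Seq came from V6.5 mouse embryonic stem cells (mESCs), grown on irradiated fibroblast feeders, in 2 groups of 2 libraries of Pol II degron cells and 1 group of 2 libraries of wild-type cells. In the degron cells, a clonal line, both copies of the gene for RPB1, the largest subunit of RNA polymerase II (Pol II), carry an mAID-GFP tag, and OsTIR1, the plant protein that recognises the tag when auxin is present, stands at the Rosa26 locus under a doxycycline-inducible promoter. Both degron groups received doxycycline at 1 μg/ml for 12 h. The untreated group then received no auxin, and the auxin group received 500 μM indole-3-acetic acid, the natural auxin, for 6 h. The wild-type group carries no tag, and whether it received doxycycline is not given in the sources used here. No library combined auxin with an untagged polymerase, so auxin itself and the loss of Pol II cannot be told apart in these data.

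The aryl hydrocarbon receptor is a ligand-activated transcription factor of the bHLH-PAS family. Without ligand it rests in the cytoplasm with HSP90 and co-chaperones. Dioxins, polycyclic aromatic hydrocarbons and several indole compounds that derive from tryptophan bind it, after which it enters the nucleus, pairs with ARNT and binds DNA at sites with the core GCGTG. Its best known targets are the Cyp1 monooxygenases, which oxidise the ligands, and the feedback inhibitors Ahrr and Tiparp. NRF2, the product of Nfe2l2, controls a neighbouring set of detoxifying enzymes, some of which, such as Nqo1, answer to both factors.

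Between 14094022 and 15358714 reads were counted on genes per library. Polr2a, the gene of the tagged subunit, had 6623 and 6568 counts in untreated, 10396 and 10663 in auxin-treated and 6866 and 7129 in wild-type cells. The degron removes the protein, so this mRNA does not check the depletion. Libraries of one group differed by more than counting error, with a chi-square per degree of freedom between 2.31 and 5.72, the highest of them in the untreated group. The study's methods describe the replicates of its sequencing experiments in general as biological. Neither they nor the labels say that these libraries came from separate cultures, so p-values measure the spread between these samples. Of 10 pluripotency markers, the summed level was 4342 and 4971 CPM in untreated, 3655 and 3944 in auxin-treated and 7492 and 7402 in wild-type cells, where CPM are counts per 1000000 after TMM scaling over all 6 libraries. In the records of the wild-type group, retinas are named as the source in RNA extraction. The 12 retina markers summed to between 6.14 and 8.52 CPM in all 6 libraries, with Crx and Rcvrn at 0 counts throughout. The methods place the harvest after a pair of feeder passages, and how many feeder cells remained is not given in the sources used here. The 11 feeder fibroblast markers summed to 201.5 and 197.9 CPM in untreated, 223 and 253 in auxin-treated and 147 and 153 in wild-type cells. The fibroblast gene Lum had 1 count in all 6 libraries together, Dcn at most 4 and Fap at most 2 in any library. The markers did not move alike. From untreated to wild-type cells, Col1a2 went from 993 and 951 counts to 567 and 652. Col1a1 went from 941 and 938 to 962 and 915, and Postn from 34 and 20 to 43 and 70. Of 8 tested, 6 had a log2 fold change above 0 after auxin and 3 in wild-type cells. Ratios to this sum below are a description and do not measure feeder content.

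Across the table, the quasi-likelihood test of edgeR, at an adjusted p under 0.05, called 4.2% of the 16128 genes tested after auxin, 2.56% higher and 1.64% lower. In the comparison of wild-type with untreated cells it called 60.6% of 15778 genes, 29.9% higher and 30.7% lower. Of the 10 aryl hydrocarbon receptor genes, 9 passed the filter on low counts in each comparison, and Cyp1a2 did not. By the same call rule, 3 of these 9 were higher (Cyp1a1, Cyp1b1 and Tiparp) and 1 was lower (Nfe2l2) after auxin, with the same numbers by DESeq2. The number higher was 2 when libraries were scaled to their mitochondrial mRNAs in place of TMM (mitochondrial scaling) and 2 with no filter on low counts. The number lower was 0 with mitochondrial scaling, with no filter and without either auxin replicate, and 2 without untreated replicate 1 or with the replicate number as a block. In wild-type cells 7 of 9 were lower by edgeR and 5 by DESeq2, and 0 were higher by either tool or at an unadjusted p under 0.05. The number lower was also 5 with no filter and without either wild-type replicate, and 9 with mitochondrial scaling. Both libraries of one group lay beyond both of the other for 8 of the 9 genes after auxin, 5 higher and 3 lower, where 50.8% of all genes tested had groups that did not overlap, 22.3% higher and 28.4% lower. In wild-type cells this held for 9 of 9, 1 higher and 8 lower, against 81% of all genes, 40.5% in each direction. Since the genes were chosen with these values in view, nothing is read from those counts, and both comparisons share the untreated libraries. The median log2 fold change (log2FC, given with its standard error, SE) of the 9 genes was 0.24 after auxin and −0.51 in wild-type cells, beside 0.00 and −0.01 over all genes tested. TMM centres the typical gene near 0, so higher and lower, here and below, are relative to it and are not amounts per cell. With mitochondrial scaling, the median over all genes tested was −0.17 after auxin.

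**Figure D1:**
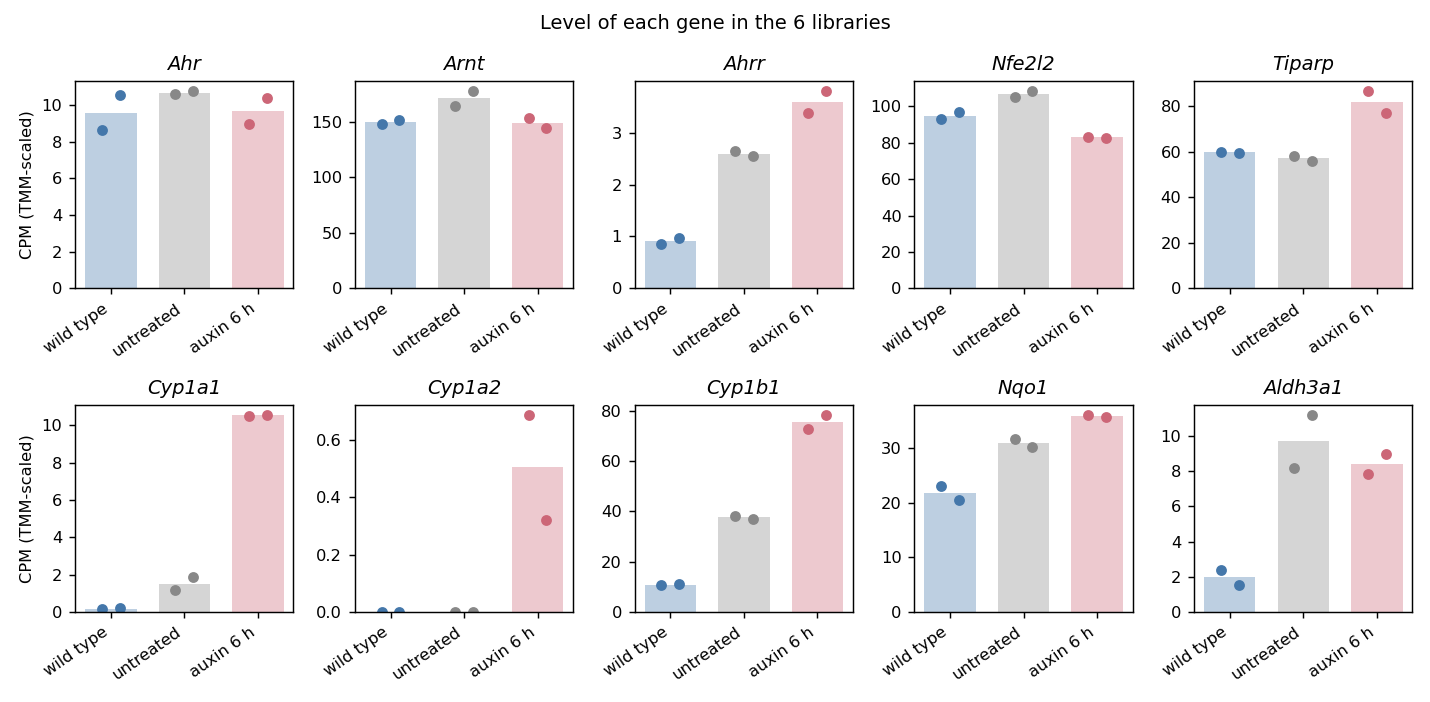
Level of each of the 10 genes in CPM after TMM scaling (linear axes from 0, each with its own scale) in wild-type, untreated and auxin-treated cells. Points are single libraries and bars are the means of 2. Cyp1a1, Cyp1b1, Ahrr and Nqo1 ascend from wild-type through untreated to auxin-treated cells, with no overlap between groups, while Ahr spans only 8.66 to 10.8 CPM over all 6 libraries.

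Ahr, which encodes the receptor itself, lies on chromosome 12 (mm10, 35497974 to 35535038, minus strand, GENCODE vM21). It had 152 and 157 counts in untreated, 143 and 161 in auxin-treated and 123 and 151 in wild-type cells. Its level was 10.7 ± 0.136 CPM (SD, n = 2) in untreated, 9.67 ± 1.01 CPM in auxin-treated and 9.59 ± 1.32 CPM in wild-type cells. On the TMM scale the groups stood close together, and the spread of the auxin-treated and the wild-type libraries was as large as their distance from the untreated mean. The log2FC was −0.13 (SE 0.15) after auxin and −0.16 (SE 0.16) in wild-type cells. With mitochondrial scaling these values were −0.30 and −2.25. An exon of Ahr lies opposite the gene Gm48236. Whether reads were counted by strand is not given in the sources used here, so reads of such partners cannot be told apart. Arnt, the obligate partner of the receptor and of other bHLH-PAS factors, lies on the plus strand of chromosome 3 (95434388 to 95497240). It had 2364 and 2590 counts in untreated, 2449 and 2235 in auxin-treated and 2107 and 2177 in wild-type cells. At 171 ± 9.32 CPM in untreated cells it was above both other groups, which overlapped at 149 ± 6.60 and 150.1 ± 2.48 CPM. Counted within each library, and so free of any scaling, there were 0.0643 and 0.0606 Ahr counts per Arnt count in untreated, 0.0584 and 0.0720 in auxin-treated and 0.0584 and 0.0694 in wild-type cells. The ratio of receptor to partner mRNA thus overlapped between all 3 groups.

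Ahrr encodes the repressor that competes with the receptor for ARNT and is itself a target of the receptor. It lies on the minus strand of chromosome 13 (74211118 to 74292331). There were 38 and 37 counts in untreated, 54 and 59 in auxin-treated and 12 and 14 in wild-type cells. The groups did not overlap, with wild-type cells lowest and auxin-treated cells highest. After auxin the log2FC was 0.49 (SE 0.24), a small change for its error. In wild-type cells it was −1.51 (SE 0.32). Per count of Ahr in the same library there were 0.25 and 0.236 counts of Ahrr in untreated, 0.378 and 0.366 in auxin-treated and 0.0976 and 0.0927 in wild-type cells. The ratio of repressor to receptor mRNA was close between replicates and did not overlap between groups. Over the summed feeder markers of the same library, the level of Ahrr was 0.0131 and 0.0128 in untreated, 0.0151 and 0.0150 in auxin-treated and 0.00576 and 0.00639 in wild-type cells.

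The Cyp1 genes encode the cytochrome P450 enzymes that are the classical readout of the receptor. Cyp1a1 lies on the plus strand of chromosome 9 (57687928 to 57703824), opposite in direction to its neighbour Cyp1a2 on the minus strand (57676937 to 57683703). Cyp1a1 had 17 and 27 counts in untreated cells, 168 and 164 after auxin, and 2 and 3 in wild-type cells. Its level went from 1.52 ± 0.474 CPM (SD, n = 2) in untreated to 10.55 ± 0.0339 CPM in auxin-treated cells, with no overlap. This is a log2FC of 2.81 (SE 0.23), which ranked 56 of the 16128 genes tested. Between single libraries the ratio of auxin-treated to untreated cells lay from 5.68 to 8.93. Wild-type cells had 5 counts in both libraries together, and untreated cells were 8.69-fold higher by summed counts, with a 95% interval of 3.45 to 28.1 that covers counting error only. Over the summed feeder markers, Cyp1a1 stood at 0.00588 and 0.00937 in untreated, 0.0471 and 0.0417 in auxin-treated and 0.000961 and 0.00137 in wild-type cells, the same order without overlap. Cyp1a2, which in the adult is expressed chiefly in liver, had 0 counts in both untreated and both wild-type libraries and 11 and 5 counts after auxin. Against a floor of 3 counts over the untreated group, it was at least 4.90-fold higher after auxin. No fold can be given between untreated and wild-type cells. In bulk RNA, fewer cells that express a gene and less RNA per cell cannot be told apart, so such values do not say how many cells held Cyp1a1 or Cyp1a2 mRNA.

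Cyp1b1, the family member with the most mRNA here and one that fibroblasts also express, lies on the minus strand of chromosome 17 (79701537 to 79715061). It had 549 and 540 counts in untreated, 1161 and 1216 in auxin-treated and 152 and 157 in wild-type cells. Each pair of replicates was far closer than any pair of groups. The log2FC was 1.02 (SE 0.08) after auxin, and the single-library ratios lay from 1.90 to 2.11. Wild-type cells were at 10.8 ± 0.177 CPM against 37.7 ± 0.822 CPM in untreated cells, a log2FC of −1.81 (SE 0.10). The summed feeder markers moved in the same order, from wild-type to untreated to auxin-treated cells. Set over that sum in the same library, the level of Cyp1b1 was 0.190 and 0.187 in untreated, 0.326 and 0.309 in auxin-treated and 0.0730 and 0.0717 in wild-type cells. The 3 groups stayed apart on this ratio, and auxin-treated cells remained highest.

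**Figure D2:**
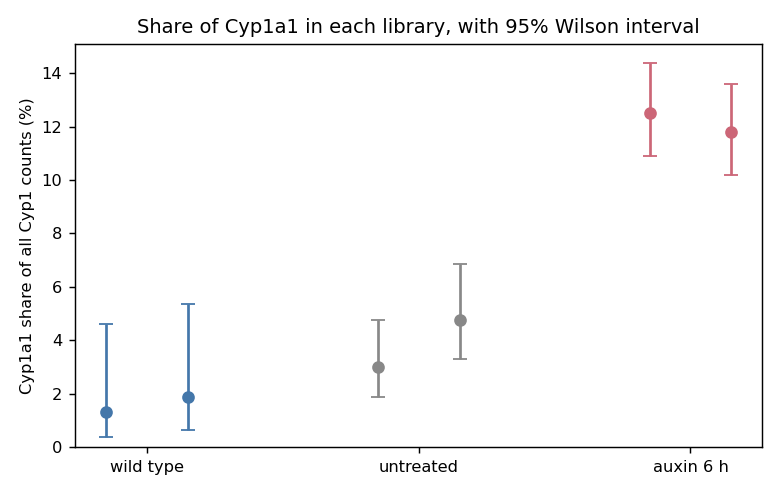
Share of the summed Cyp1a1, Cyp1a2 and Cyp1b1 counts that fell on Cyp1a1 (percent, linear axis from 0), by library, with the 95% Wilson interval of each share. Intervals cover counting error only, and the genes were chosen with these counts known, so their distance is no test. They span 10.9 to 14.4 and 10.2 to 13.6 in the auxin-treated libraries and reach at most 6.84 in the other 4.

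The share of Cyp1a1 among the Cyp1 counts was highest in the auxin-treated libraries, which is a description only. Cyp1a1 made up 3.00% and 4.76% of the Cyp1 counts in untreated cells, 12.5% and 11.8% in auxin-treated cells and 1.30% and 1.88% in wild-type cells. The Wilson intervals of the untreated and the wild-type libraries overlapped, at 1.88 to 4.76 and 3.29 to 6.84 in untreated and 0.357 to 4.61 and 0.640 to 5.37 in wild-type cells. They cover counting error only and are no test between groups. Cyp1b1 held the rest almost alone, with 86.6% and 87.8% even after auxin. Per kilobase of merged exons, the scale on which levels of different genes may be compared, the level of Cyp1a1 was 0.545 CPM per kb in untreated and 3.79 CPM per kb in auxin-treated cells, against 6.45 and 12.9 CPM per kb for Cyp1b1.

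Tiparp, also called PARP7, is a mono-ADP-ribosyltransferase that modifies the receptor and limits its activity. It lies on the plus strand of chromosome 3 (65528410 to 65555518), and 4931440P22Rik, with 15 to 59 counts, overlaps one of its exons on the other strand. Tiparp had 833 and 813 counts in untreated, 1382 and 1194 in auxin-treated and 850 and 853 in wild-type cells. Unlike Cyp1a1, Cyp1b1 and Ahrr, it stood near one level in untreated and wild-type cells, at 56.9 ± 1.56 and 59.7 ± 0.243 CPM. In auxin-treated cells it was above both, at 81.8 ± 6.79 CPM. The log2FC was 0.54 (SE 0.08) after auxin and 0.06 (SE 0.07) in wild-type cells, the latter −2.04 when scaled to mitochondrial mRNAs. The ratio of auxin-treated to untreated cells was 1.33 to 1.55 between single libraries. Over the summed feeder markers, the level of Tiparp was 0.288 and 0.282 in untreated, 0.388 and 0.304 in auxin-treated and 0.408 and 0.389 in wild-type cells, so on that ratio wild-type rather than auxin-treated cells were highest.

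Promoter sequence from RefSeq (GRCm38.p6, the assembly of mm10) was at hand for 8 of the 10 genes, not for Ahr and Aldh3a1. The 250 bases before the RefSeq start were searched for the receptor core GCGTG on both strands. RefSeq starts can differ from the GENCODE ends given with each gene. The Cyp1a1 window lies inside the GENCODE extent of that gene, which begins at 57687928. These letters are also one form of the core bound by HIF1A with ARNT. A match was present in 28.2% of the 32851 promoters of the table. It was present once before Cyp1a1, Cyp1b1, Tiparp and Arnt, 3 times before Ahrr, and 0 times before Cyp1a2, Nqo1 and Nfe2l2. The promoters shown are of the 4 targets that had matches and were higher in both auxin-treated libraries than in both untreated ones. They were thus chosen on both traits, so the set cannot relate matches to changes. The share of 28.2% was not matched for base content, and G and C made up 53.6% of the Cyp1a1 window and 75.2% of the Tiparp window. Matches are in capitals, reading CACGC where the core lies on the other strand. The match lies at −54 from the start of Cyp1a1 (chr9:57697363-57697612, plus strand), at −76 of Cyp1b1 (chr17:79715062-79715311, minus strand), at −170 of Tiparp (chr3:65528197-65528446, plus strand) and at −107, −82 and −27 of Ahrr (chr13:74292332-74292581, minus strand), counted to its first base.
Cyp1a1: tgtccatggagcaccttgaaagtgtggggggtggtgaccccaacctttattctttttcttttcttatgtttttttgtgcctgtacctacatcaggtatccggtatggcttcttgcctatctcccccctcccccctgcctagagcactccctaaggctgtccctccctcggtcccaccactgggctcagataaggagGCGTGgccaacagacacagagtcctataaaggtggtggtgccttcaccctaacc
Cyp1b1: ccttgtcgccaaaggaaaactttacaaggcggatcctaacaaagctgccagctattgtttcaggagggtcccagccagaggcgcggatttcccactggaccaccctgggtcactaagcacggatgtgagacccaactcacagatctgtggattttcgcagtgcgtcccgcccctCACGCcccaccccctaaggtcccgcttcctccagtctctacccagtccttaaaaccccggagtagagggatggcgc
Tiparp: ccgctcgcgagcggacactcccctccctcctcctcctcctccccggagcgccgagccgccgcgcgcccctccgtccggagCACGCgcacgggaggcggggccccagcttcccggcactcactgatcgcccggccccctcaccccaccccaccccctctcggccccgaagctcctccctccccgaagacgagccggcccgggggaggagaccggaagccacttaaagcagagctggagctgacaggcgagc
Ahrr: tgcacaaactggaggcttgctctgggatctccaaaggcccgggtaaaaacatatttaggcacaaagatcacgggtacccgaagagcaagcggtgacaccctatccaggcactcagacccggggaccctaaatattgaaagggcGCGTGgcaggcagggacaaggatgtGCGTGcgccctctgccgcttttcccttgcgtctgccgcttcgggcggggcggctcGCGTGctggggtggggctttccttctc
Receptor binding was not measured in these libraries, and a match is no evidence of a bound site. Cyp1a2 and Nqo1, which were also higher in every auxin-treated library, had 0 matches in this window. Arnt had a match and was lower in CPM in both auxin-treated libraries than in both untreated ones.

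Nqo1 and Aldh3a1 encode enzymes of the second phase of detoxification, a quinone reductase and an aldehyde dehydrogenase. Nqo1, on the minus strand of chromosome 8 (107388225 to 107403206), had 453 and 439 counts in untreated, 576 and 554 in auxin-treated and 327 and 294 in wild-type cells. The order was again wild-type, untreated, auxin-treated without overlap, with a log2FC of 0.24 (SE 0.09) after auxin and −0.51 (SE 0.09) in wild-type cells. With mitochondrial scaling the value after auxin was 0.07. Over the summed feeder markers, which moved in the same order, the level of Nqo1 was 0.157 and 0.152 in untreated, 0.162 and 0.141 in auxin-treated and 0.157 and 0.134 in wild-type cells, and the groups overlapped. Aldh3a1, on the plus strand of chromosome 11 (61207537 to 61218421), had 117 and 163 counts in untreated, 125 and 139 in auxin-treated and 34 and 22 in wild-type cells. Untreated and auxin-treated cells overlapped, with a log2FC of −0.19 (SE 0.18) that turned to 0.06 without untreated replicate 2. Wild-type cells were lower than both, with a log2FC of −2.31 (SE 0.26) against untreated cells. Of the 8 genes fitted in that comparison with more than 3 counts in a library of each group, Aldh3a1 had the most negative value, while its auxin-treated and untreated libraries overlapped.

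Nfe2l2, on the minus strand of chromosome 2 (75675513 to 75704641), went the other way after auxin. It had 1507 and 1580 counts in untreated, 1331 and 1279 in auxin-treated and 1323 and 1386 in wild-type cells. In CPM the groups did not overlap, with 106.8 ± 2.49 in untreated, 94.9 ± 2.50 in wild-type and 82.9 ± 0.657 in auxin-treated cells. The log2FC was −0.35 (SE 0.07) after auxin and −0.18 (SE 0.06) in wild-type cells. For each count of Nfe2l2 there were 0.301 and 0.278 counts of Nqo1 in untreated and 0.433 in both auxin-treated libraries, beside 0.247 and 0.212 in wild-type libraries. Of all 10 genes, Nfe2l2 had the highest level per length in untreated cells, at 28.1 CPM per kb, and Arnt and Nqo1 followed at 21.4 and 19.9 CPM per kb. Ahr, at 1.73 CPM per kb, was lower than Tiparp at 13.1, Cyp1b1 at 6.45 and Aldh3a1 at 4.98 CPM per kb, and higher than Cyp1a1 at 0.545 and Ahrr at 0.275 CPM per kb.

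**Figure D3:**
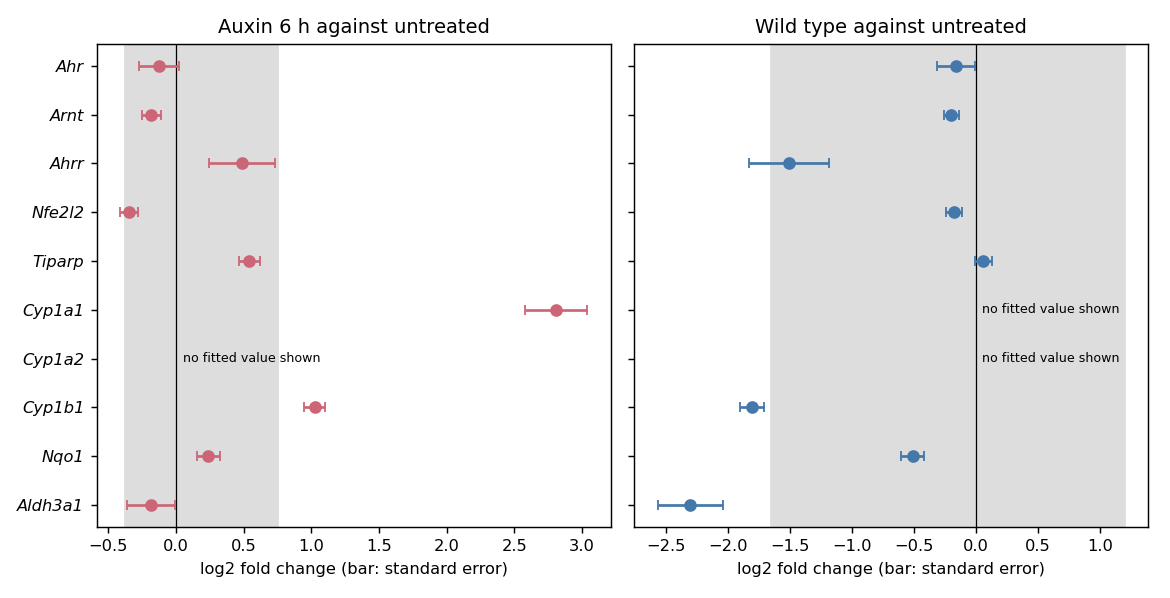
Log2 fold change of the 10 genes with its SE, for auxin-treated (left) and wild-type (right) against untreated cells, TMM-scaled. Grey bands span the 5th to the 95th percentile of all genes tested, −0.38 to 0.75 on the left and −1.65 to 1.20 on the right. Cyp1a1 and Cyp1b1 lie beyond the band on the left, and Cyp1b1 and Aldh3a1 beyond it on the right. Cyp1a2 was not tested, and the fitted value of Cyp1a1 in wild-type cells is not drawn. Each had 3 counts or fewer in both libraries of a group.

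Whether the other genes of the pathway moved was asked of lists that contain none of the 10. Of 13 genes of the receptor complex and its partners, all tested, 0 were called after auxin by edgeR's quasi-likelihood test and 0 by DESeq2. An unadjusted p under 0.05 in edgeR was found for 1 of these 13, beside 3245 of all 16128 genes tested. This list holds the cytoplasmic chaperones Hsp90aa1, Hsp90ab1 and Ptges3 and the related factors Hif1a, Epas1 and Arnt2. Of 17 further genes described as receptor targets, 7 had enough counts to be tested after auxin. Of these, 1 was called higher and 0 lower, beside 4.2% of all genes tested. Their median log2FC was 0.19, and 5 of the 7 were above 0. In edgeR 2 were higher and 0 lower at an unadjusted p under 0.05. The detoxifying genes most closely tied to the receptor in liver were hardly expressed. Ugt1a6a, Ugt1a6b and Gsta1 had at most 3 counts in any library, and Gsta2 had at most 5. The gene called was Ptgs2, the inducible cyclooxygenase, with 242 and 171 counts in untreated and 355 and 316 in auxin-treated cells, a log2FC of 0.60 (SE 0.15, edgeR adjusted p = 0.0416). It was not called by DESeq2 (adjusted p = 0.174), nor when untreated replicate 2 (adjusted p = 0.0829), auxin replicate 1 (adjusted p = 0.232) or auxin replicate 2 (adjusted p = 0.108) was left out in edgeR. Slc7a5, an amino acid transporter, had 9139 and 10042 counts in untreated and 9834 and 10562 in auxin-treated cells. Its log2FC of −0.01 was not called, nor were those of Ugdh at 0.22 and Fgf21 at 0.19.

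Among the genes around NRF2, 26 were tested after auxin, 0 were called higher and 1 lower, and the median log2FC was 0.03. An unadjusted p under 0.05 was found for 2 higher and 2 lower. With the replicate number as a block, 1 was called higher. Keap1, the adaptor that targets NRF2 for degradation, had 491 and 463 counts in untreated and 576 and 580 in auxin-treated cells and was not called. Hmox1, the haem oxygenase, was the gene called lower, with 2674 and 2590 counts in untreated and 2279 and 2266 in auxin-treated cells. Its log2FC was −0.32 (SE 0.07, edgeR adjusted p = 0.0189), and it was not called without auxin replicate 1 (edgeR adjusted p = 0.239) or replicate 2 (edgeR adjusted p = 0.192). The glutathione enzymes Gclm and Gclc, at 0.03 and 0.17, and the thioredoxin reductase Txnrd1, at 0.02 on the log2 scale, were not called. Groups did not overlap for 50.8% of all genes tested, 22.3% higher and 28.4% lower, so nothing is read from such separation here. Higher without overlap were Keap1, Gclc, Gstm1, Srxn1 at 0.33, Slc7a11 at 0.64 and Osgin1 at 0.64, and these were not called. Lower without overlap, and also not called, were Bach1, Me1, Fth1, Ephx1 at −0.29, Ftl1 at −0.21 and Gsta4 at −0.17. The groups of Hmox1 did not overlap either. Of the 26 genes, 16 had a log2FC above 0.

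The remaining families are to be read beside the 4.2% of all genes tested that were called after auxin. Their unadjusted p-values are to be read beside the 3245 of 16128 genes that were under 0.05 in edgeR. Of 88 other cytochrome P450 genes in the table, 30 had 0 counts in all 6 libraries and 24 were tested, of which 1 was called higher and 0 lower by edgeR and 0 by DESeq2. An unadjusted p under 0.05 was found for 5 higher and 1 lower of the 24. The gene called by edgeR was Cyp2e1, an enzyme of ethanol metabolism, with 0 and 1 counts in untreated, 19 and 24 in auxin-treated and 0 and 0 in wild-type cells. By summed counts it was 39.5-fold higher after auxin, with a 95% counting interval from 6.72 to 1600, and its adjusted p was 0.00426 from edgeR and 0.0770 from DESeq2. Of the other PARP genes, the family of Tiparp, 12 were tested, 0 were called in either direction by edgeR or DESeq2, and 3 had an unadjusted p under 0.05. Of the other aldehyde dehydrogenases, the family of Aldh3a1, 14 were tested with 0 called by either tool and 3 at an unadjusted p under 0.05. Of 12 tested genes of tryptophan and indole metabolism, whose products include known receptor ligands, 0 were called by either tool and 2 had an unadjusted p under 0.05. The 2 tested genes of the P450 system of other xenobiotic receptors, Por and Cyb5r3, were not called by either tool, and 0 had an unadjusted p under 0.05.

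**Figure D4:**
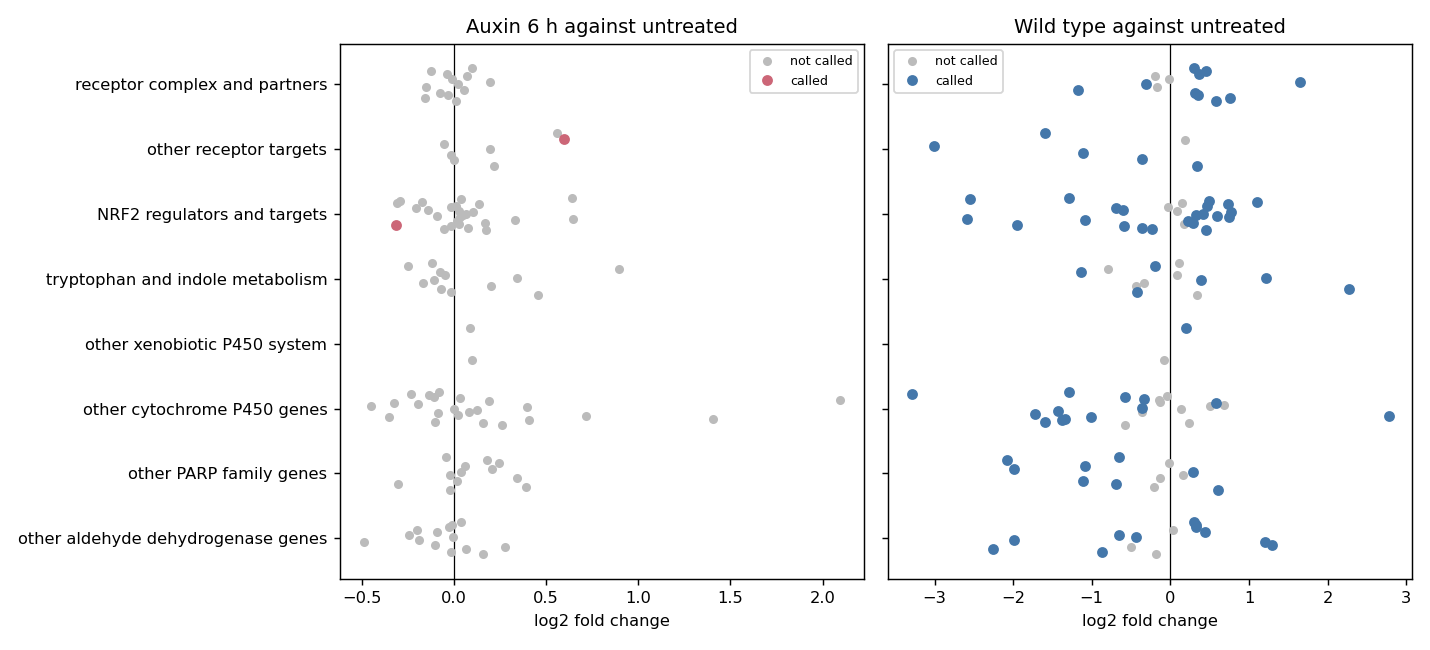
Log2 fold changes of the tested genes of the other pathway lists after auxin (left) and in wild-type cells (right), TMM-scaled. Each point is a gene, coloured where edgeR's adjusted p was under 0.05, and genes with 3 counts or fewer in both libraries of a group, such as Cyp2e1, are not drawn. Coloured points are rare on the left (Ptgs2 and Hmox1) and common on the right, where scaling to mitochondrial mRNAs would shift every point to the left by about 2.1.

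In wild-type against untreated cells calls in the same lists are to be read beside the 60.6% of all genes tested that were called. Mitochondrial mRNAs had 226085 and 223216 counts in wild-type libraries and between 48127 and 66801 in the 4 degron libraries. Scaled to them, the median log2FC of all genes was −2.10 in wild-type cells, so directions below are relative to the typical gene. Wild-type libraries stand in a table of their own, and whether those cells received doxycycline is not given. Differences in preparation, in doxycycline and in genotype, including the choice of a clone, cannot be told apart. Of the 13 genes of the receptor complex, 8 were called higher and 2 lower in wild-type cells, and 0 higher when scaled to mitochondrial mRNAs. Epas1, the hypoxia factor HIF2A, had 197 and 198 counts in untreated and 613 in both wild-type libraries, a log2FC of 1.64 (SE 0.09, edgeR adjusted p = 5.37e-08). The co-chaperone Ptges3 was higher by 0.76 (SE 0.06, edgeR adjusted p = 6.61e-07). Both were below 0 when scaled to mitochondrial mRNAs. Arnt2, which can replace Arnt as a partner, was lower, with 246 and 260 counts in untreated and 101 and 122 in wild-type cells and a log2FC of −1.17 (SE 0.14, edgeR adjusted p = 2.84e-05). Hif1a differed by −0.31 (SE 0.06, edgeR adjusted p = 0.00144).

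Of the 6 further receptor targets tested in wild-type cells, 4 were lower and 1, Ugdh, was higher, with 0 higher when scaled to mitochondrial mRNAs. Fgf21, a hormone of the fasting and stress responses, had 42 and 41 counts in untreated and 5 in each wild-type library, a log2FC of −3.01 (SE 0.38, edgeR adjusted p = 4.12e-05). Slc7a5 was lower by −1.11 (SE 0.06, edgeR adjusted p = 8.34e-08), with 4356 and 4453 counts in wild-type cells. Around NRF2, 12 genes were higher and 10 lower of 26, and 0 were higher when scaled to mitochondrial mRNAs. The lower genes included Sqstm1, the autophagy receptor p62, with 19296 and 16499 counts in untreated and 3003 and 3077 in wild-type cells, a log2FC of −2.55 (SE 0.08, edgeR adjusted p = 1.41e-09). They also included Hmox1, at 693 and 656 counts in wild-type cells and −1.95 (SE 0.07, edgeR adjusted p = 2.24e-09). Among the higher genes were the glutathione transferase Gsta4, at 1.10 (SE 0.07, edgeR adjusted p = 2.09e-07), and the transketolase Tkt, at 0.77 (SE 0.06, edgeR adjusted p = 1.31e-06), both lower when scaled to mitochondrial mRNAs.

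Finally, the genes whose course over the 6 libraries was nearest to that of Cyp1a1 were sought among 10962 genes that averaged 100 counts or more. Cyp1a1 itself averaged fewer, so genes at its own level were left out of the search. The measure was the root mean square distance between profiles of log2(CPM + 1) relative to the untreated mean. The nearest was Dio3, an enzyme that inactivates thyroid hormone, at a distance of 0.269, with 57 and 51 counts in untreated, 295 and 306 in auxin-treated and 19 and 32 in wild-type cells. Myh6, a cardiac myosin, was at 0.580, Rnd1 at 0.698 and Gm13034 at 0.850. The added 1 narrows changes at low levels, so near on this measure does not mean equal in fold. The ratio of wild-type to untreated means was 0.115 for Cyp1a1, 0.48 for Dio3 and 0.735 for Myh6. The ratio of auxin-treated to untreated means was 6.94, 5.11 and 3.34 in that order. These distances rest on 6 libraries in 3 groups and are a description.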

How the data were processed

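PolyA RNA-Seq of 6 libraries was analysed. Per the labels and the study's methods, the authors aligned paired reads of mouse cells to mm10 with HISAT2 2.1.0 and counted them per GENCODE gene with Salmon and HTSeq. The annotation release is not given in the sources used here. The authors deposited whole-number counts, not normalized, in 2 tables with the same gene identifiers, which were joined. Columns of the authors' own DESeq2 comparison (group means, fold changes and p-values) were not used, nor were 2 columns of per-sample values that match no sample. Genes were located in GENCODE vM21, which holds 37607 of the 39017 genes.

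Each comparison was fitted on its own 4 libraries with edgeR 4.0.16 in R 4.3.3 (filterByExpr with a minimum count of 10, TMM, glmQLFit, glmQLFTest, Benjamini-Hochberg adjustment over all genes tested, calls at an adjusted p under 0.05, prior count 0.125). The procedure was run on simulated counts with the same dispersion for all genes. That run does not check it under the spread seen between these libraries. Standard errors are the fold change divided by the root of the F statistic. Levels are CPM with TMM factors over all 6 libraries. A group at 0 counts was given a floor of 3 counts over the group. For genes at 3 counts or fewer in both libraries of a group, no fitted fold change is shown. Where a ratio is given for them, it is one of summed counts with its counting interval. Counts without molecular identifiers make intervals and floors cover counting error only.

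The 10 genes and the lists were chosen with earlier results of these data known. Named genes are the 10, Polr2a, up to 2 called genes with the smallest p per list, comparison and direction, the 5 genes nearest to Cyp1a1 (1 of them is not reported here), and a few others, such as Keap1, Gclm, Gclc and Txnrd1, which were named after their values were seen. Alternatives were DESeq2 1.42.0, its size factors, library totals, mitochondrial mRNAs as the scale, other filters, a replicate block, all libraries in one fit, a prior count of 5, and each library left out in turn.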

Additional observations from a re-analysis of the deposited data

How the results depend on the processing

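The number of genes called after auxin, 677, depended on the test. It was 236 with DESeq2, 219 with mitochondrial scaling, 55 with no filter, 432 with at least 10 counts in every library and 1235 with all 6 libraries in one fit. With the replicate number as a block it was 1930. Replicate numbers pair nothing that the labels name, and deviations of same-numbered libraries correlated at 0.112 after auxin and −0.0588 in wild-type cells over 10969 genes. With 1 library left out it lay between 179 (without auxin replicate 2) and 2724 (without untreated replicate 1), was 184 without auxin replicate 1 and 1114 without untreated replicate 2, and the lone library is then assumed to vary like the other group. In wild-type cells 9555 genes were called, and 15308 with mitochondrial scaling, 73 of them higher. DESeq2's size factors and library totals kept both numbers within 1.5-fold.

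The log2 fold change of Cyp1a1 after auxin lay between 2.52 and 3.16, that of Cyp1b1 between 0.97 and 1.07 and that of Tiparp between 0.45 and 0.63 over the alternatives other than mitochondrial scaling, which gave 2.66, 0.85 and 0.38. Nfe2l2 lay between −0.37 and −0.33, with −0.51 under that scaling. The same scaling gave 0.07 for Nqo1, 0.32 for Ahrr, −0.30 for Ahr, −0.35 for Arnt and −0.34 for Aldh3a1 after auxin. For Ahr and Arnt in wild-type cells it gave −2.25 and −2.29. In wild-type cells mitochondrial scaling turned the direction of 13 named genes beside that of Tiparp. The values were −2.00 for Polr2a, −1.90 for Cyb5r3, −0.88 for Ddc, −1.32 for Tkt, −1.51 for Cyp39a1, −0.45 for Epas1, −1.48 for Parp1, −1.76 for Ugdh, −0.88 for Aldh1l1, −0.99 for Gsta4, −0.80 for Aldh1b1, −1.82 for Parp2 and −1.33 for Ptges3. The cause was not tested. At this depth genes with few counts, such as Cyp1a2 and Cyp1a1 in wild-type cells, are known only within wide bounds.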

Other observations

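In wild-type against untreated cells, the families of Tiparp and Aldh3a1 held calls in both directions on the TMM scale, as did the whole table, where 60.6% of 15778 genes were called, 29.9% higher and 30.7% lower. Of 12 PARP genes tested, edgeR's quasi-likelihood test called 2 higher and 6 lower, and 0 higher with mitochondrial scaling. Parp3 was lower, with 250 and 199 counts in untreated and 60 and 52 in wild-type cells, a log2 fold change (log2FC) of −1.99 (standard error, SE, 0.19, edgeR adjusted p = 3.61e-06), and Parp12, an antiviral family member, differed by −1.11 (SE 0.09, edgeR adjusted p = 1.61e-06). Parp1, the main DNA damage sensor of the family, was higher by 0.61 (SE 0.07, edgeR adjusted p = 3.24e-05) and Parp2 by 0.28 (SE 0.08, edgeR adjusted p = 0.00745), both lower with mitochondrial scaling. Of 15 aldehyde dehydrogenases tested, 7 were higher and 5 lower, and 0 higher with mitochondrial scaling. The mitochondrial folate enzyme Aldh1l2 had 519 and 505 counts in untreated and 116 and 139 in wild-type cells, a log2FC of −1.99 (SE 0.11, edgeR adjusted p = 7.47e-08). Its cytosolic relative Aldh1l1 was higher by 1.20 (SE 0.15, edgeR adjusted p = 3.58e-05), with 94 and 119 counts in untreated and 248 and 237 in wild-type cells, and lower with mitochondrial scaling.

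Of 22 other cytochrome P450 genes tested in wild-type cells, 11 were lower and 2 higher, with 0 higher when scaled to mitochondrial mRNAs. Cyp27a1, a sterol hydroxylase, had 134 and 142 counts in untreated and 61 and 47 in wild-type cells, a log2FC of −1.34 (SE 0.20, edgeR adjusted p = 0.000118). Of the genes of tryptophan and indole metabolism, 3 were higher and 3 lower of 12, again with 0 higher when scaled to mitochondrial mRNAs. Ccbl2, a kynurenine aminotransferase, had 24 and 19 counts in untreated and 109 and 98 in wild-type cells, a log2FC of 2.27 (SE 0.24, edgeR adjusted p = 1.10e-05) that was 0.18 and not called with mitochondrial scaling. It lies opposite Gm15540.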
